A study of Mus musculus with 10 samples.

Results

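The granins and the prohormone processing enzymes were followed in pancreas tail tissue of mice that differed in the insulin receptor gene Insr. The set holds 7 genes, taken by symbol from the raw count table: the granins Chga, Chgb, Scg2 and Scg3, the prohormone convertases Pcsk1 and Pcsk2, and the carboxypeptidase gene Cpe. They are 7 of the 24421 genes in the table, and all 7 were among the 13688 genes with enough counts to test. Each library came from a piece of the tail of the pancreas of 1 female mouse aged 12 weeks. Per the labels, every mouse carried Ptf1aCreER, a tamoxifen-inducible Cre recombinase driven by a gene of acinar cells, which make digestive enzymes. Every mouse also carried nTnG, a nuclear fluorescent reporter. The groups were Insr WT (Insr w/w, 0 floxed alleles, 3 libraries), Insr Het (Insr w/f, 1 floxed allele, 3 libraries) and Insr KO (Insr f/f, 2 floxed alleles, 4 libraries). A floxed allele is one that Cre can remove. Per the labels there was 1 further WT mouse, not analysed here. They give no tamoxifen schedule. Libraries are named by label and mouse number, as in WT-2404.

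Granins are acidic proteins that load and shape the dense core granules in which endocrine cells and neurons store peptide hormones. Inside the granule, prohormone convertases cut precursors such as proinsulin and proglucagon after pairs of basic residues, and carboxypeptidase E trims the residues left at the cut ends. In the pancreas these genes are known from the islets, the hormone-secreting clusters that make up a small part of the tissue, whereas the Cre driver belongs to acinar cells.

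The 7 genes lie on 6 chromosomes (GRCm38, the build named mm10 in the submitters' processing notes, with GENCODE M21 gene models). Chga is at chr12:102554969-102565028 on the plus strand and Chgb at chr2:132781278-132795079 on the plus strand. Scg2 is at chr1:79434669-79440120 and Scg3 at chr9:75643189-75684056, both on the minus strand. Pcsk1 is at chr13:75089826-75134861 and Pcsk2 at chr2:143546156-143816285, both on the plus strand, and Cpe is at chr8:64592542-64693054 on the minus strand. Pcsk2 shares its locus with the antisense genes Pcsk2os1 and Pcsk2os2, and Scg3 with the unclassified gene Gm37871 on the other strand. Whether the counting used strand is not given in the sources used here, so those overlaps leave the counts of Pcsk2 and Scg3 uncertain to that extent.

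The sequence around the starts of the 7 genes was examined for the cyclic AMP response element, TGACGTCA, a motif known from promoters of neuroendocrine genes. RefSeq start sites on GRCm38.p6 were available for 6 of the 7 genes, with 250 bases before and 50 after each start. The full motif stood in 3 of the 6 windows (Chgb, Scg2 and Pcsk1), and the motif's left part, TGACG, on either strand stood in all 6, including inside the full motif. Of 32851 RefSeq windows of the same length, 588 (1.79%) held the full motif and 6837 (20.8%) held TGACG on either strand. The 30 bases around each match are shown 5′ to 3′ on the gene's strand, with the match in capitals, because these are the letters that the promoters share.

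Chgb, chr2:132781559-132781588, plus strand: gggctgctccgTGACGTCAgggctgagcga
Scg2, chr1:79440076-79440105, minus strand: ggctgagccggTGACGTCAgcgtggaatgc
Pcsk1, upstream match, chr13:75089768-75089797, plus strand: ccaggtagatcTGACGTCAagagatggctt
Pcsk1, downstream match, chr13:75089796-75089825, plus strand: tttcgtcgattTGACGtgtaaacactcatt
Chga, chr12:102554886-102554915, plus strand: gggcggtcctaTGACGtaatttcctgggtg
Scg3, chr9:75684068-75684097, minus strand: cgctgggtcgcTGACGccatcctcacgcct
Pcsk2, chr2:143546085-143546114, plus strand, match on the opposite strand: cgctggcgggcgcgCGTCAcccgggctggc

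Counted from the RefSeq start, the capitals begin at -72 in Chgb, -68 in Scg2, -78 and -50 in Pcsk1, -44 in Chga, -30 in Scg3 and -34 in Pcsk2. The stretches of Chgb and Scg2 lie within annotated GENCODE exons of these genes, and the others lie upstream of the GENCODE exons. Among the 6 islet hormone genes with a RefSeq window, 1 (Sst) held the full motif, and that gene was also the only 1 with TGACG. Any link between the motif and the levels given below was not tested. A match of letters is a description of the window, and binding was not measured.

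Gene counts per library ranged from 11718559 to 19024351, and the 7 genes together took 0.0244% (WT-2404) to 0.0860% (Het-2042) of them. Levels are given as CPM, counts-per-million after TMM scaling, which brings the bulk of genes in all libraries to a common level. The library WT-2404 stood apart before any comparison of groups: digestive enzyme genes held 13.1% of its counts against 52.4% to 69.9% in the other 9, and its scaling factor was 3.53 against 0.596 to 1.56. Its fibroblast genes summed to 4713 CPM and its macrophage genes to 2463 CPM. The other WT libraries were also high for fibroblast genes, WT-2067 at 1375 CPM and WT-1860 between it and WT-2404, above the 523 to 1241 CPM of Het and KO. Macrophage genes stood at 1217 CPM in WT-1860 and 749 CPM in WT-2067, against 264 to 764 CPM in Het and KO. For the 7 genes, comparisons with WT are therefore also summarised without WT-2404. Those of Insr and of the other gene lists are given with it only. Insr itself stood at 21.0, 27.8 and 40.5 CPM in WT, at 43.1, 44.2 and 28.2 CPM in Het and at 31.5 ± 5.96 CPM (SD, n = 4) in KO. Its KO against WT difference was 0.09 on the log2 scale (SE 0.26, edgeR's quasi-likelihood test, adjusted p = 0.864) and its Het against WT difference 0.37 (SE 0.27, edgeR adjusted p = 0.437). Counts per gene of the whole tissue do not show a deletion in acinar cells, so WT, Het and KO stand below for the labels.

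Chga, encoding chromogranin A, the granin most used as a marker of endocrine cells, stood at 21.3, 206 and 125 CPM in WT-2404, WT-1860 and WT-2067. It reached 238, 184 and 408 CPM in Het-2066, Het-1770 and Het-2042, and 203, 341, 136 and 151 CPM in KO-2079, KO-2070, KO-2124 and KO-2126. The groups overlapped, with WT-1860 above Het-1770 and above 3 of the 4 KO libraries. The same library order is kept in the next sentences. Scg2, encoding secretogranin II, was measured at 10.04, 94.5 and 73.9 CPM in WT, 163, 99.3 and 198 CPM in Het, and 105, 158, 94.2 and 86.2 CPM in KO. All 3 Het libraries lay above all 3 WT libraries, while KO overlapped both. Scg3, whose product secretogranin III holds chromogranin A at the granule membrane, showed 2.87, 27.6 and 18.01 CPM in WT, 37.4, 30.1 and 63.6 CPM in Het, and 27.6, 51.0, 28.4 and 21.8 CPM in KO. Het again lay wholly above WT. Chgb, encoding chromogranin B, varied least, at 10.3, 41.7 and 23.5 CPM in WT, 25.8, 26.1 and 48.4 CPM in Het, and 28.9, 39.6, 27.9 and 16.9 CPM in KO. Its groups overlapped throughout, and WT-1860 was the second highest library of the 10.

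Of the convertases, Pcsk2, encoding the convertase that alpha cells use to release glucagon, stood at 7.15, 73.5 and 41.2 CPM in WT, 85.8, 65.1 and 128 CPM in Het, and 67.0, 125, 50 and 46.5 CPM in KO. Pcsk1, known for the first cuts of proinsulin in beta cells, was much lower, at 0.952, 9.68 and 5.27 CPM in WT, 11.8, 9.04 and 13.6 CPM in Het, and 6.61, 11.9, 6.50 and 8.58 CPM in KO. In both genes the ranges of the 3 groups overlapped, and WT-2404 lay far below the rest. Its Pcsk1 level rests on 57 counts, the fewest of any of the 7 genes in any library. Cpe, encoding carboxypeptidase E, stood at 16.6, 80.7 and 52.7 CPM in WT, 91.9, 79.8 and 144 CPM in Het, and 71.6, 136, 74.3 and 86.1 CPM in KO. WT-1860 lay above Het-1770 and above 2 KO libraries for this gene.

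In CPM after TMM scaling, all 7 genes were highest in Het-2042 and lowest in WT-2404. The highest library exceeded the lowest 4.71-fold for Chgb, 8.71-fold for Cpe, 14.3-fold for Pcsk1, 17.9-fold for Pcsk2, 19.2-fold for Chga, 19.8-fold for Scg2 and 22.2-fold for Scg3. The order and the spans depend on the scaling, whose factor was 3.53 in WT-2404 and 0.857 in Het-2042. As shares of unscaled gene counts, the 7 genes together took 0.0244% in WT-2404, 0.0249% in KO-2126, 0.0832% in WT-1860 and 0.0860% in Het-2042. Chgb had 615 of 16942368 counts in WT-2404 and 167 of 16601654 in KO-2126. The part of the scaling in the spans was not tested. Fewer endocrine cells in a piece of tissue and less RNA of these genes per cell cannot be told apart in such bulk libraries.

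**Figure D1:**
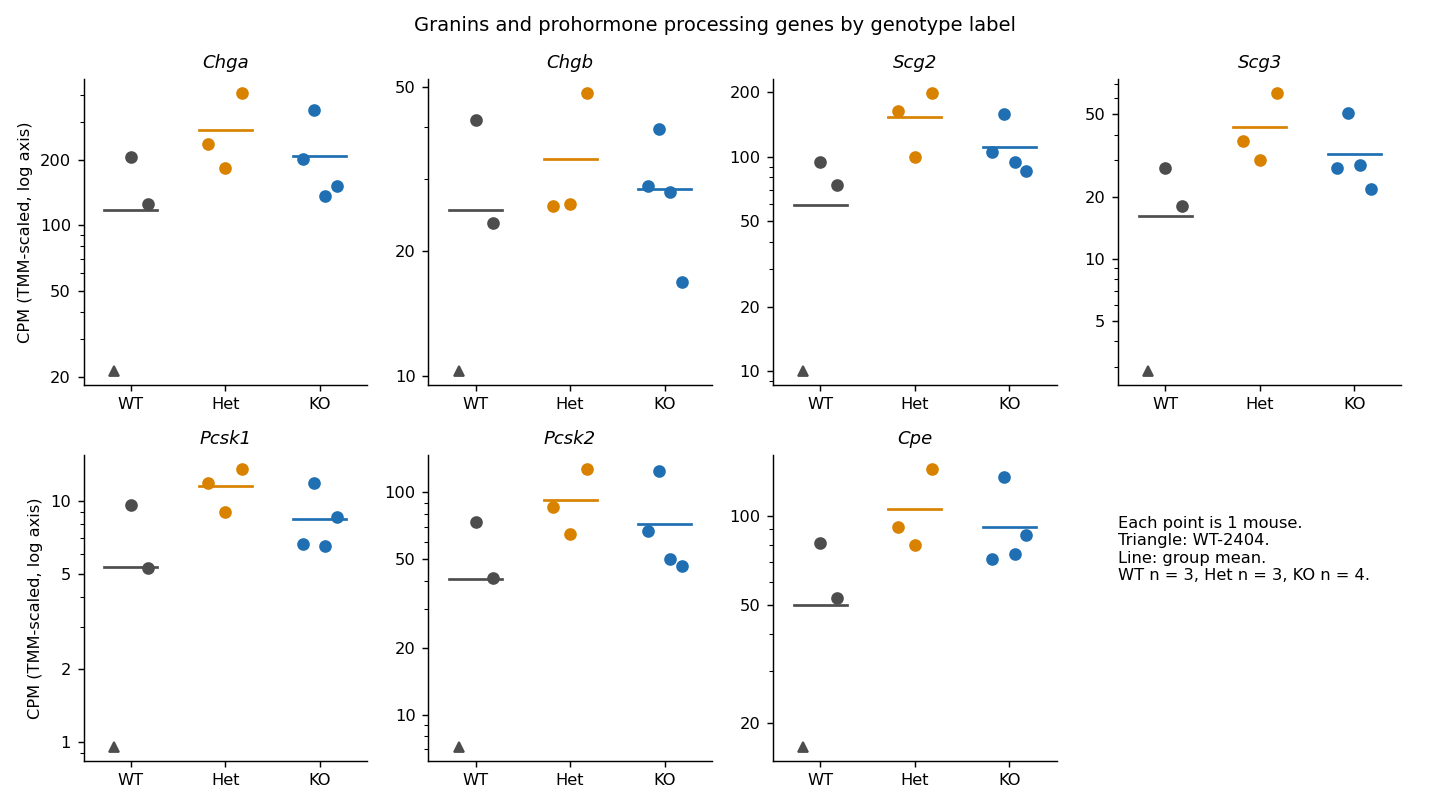
Level of each of the 7 genes in each mouse, in CPM on a log axis, by genotype label (grey WT, orange Het, blue KO; lines are group means; the triangle is WT-2404). WT-2404 is the lowest point in every panel, and the other 2 WT libraries lie within or close to the ranges of Het and KO.

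Divided by exon length, which allows genes to be compared with each other, Chga was the highest of the 7 in all 10 libraries, with a median of 70.1 CPM per kb of exon. Scg2 followed at 38.5 and Cpe at 30.8 CPM per kb. This order held in 9 libraries, while in WT-2404 Cpe (6.35 CPM per kb) lay above Scg2 (3.99 CPM per kb). Scg3 (10.2 CPM per kb), Chgb (9.86 CPM per kb) and Pcsk2 (8.35 CPM per kb) had close medians and changed places between libraries, so their order was not resolved. Pcsk1 was the lowest in all 10 libraries, with a median of 1.57 CPM per kb.

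The first comparison asked whether the genes differed between the Insr genotypes. In KO against WT, edgeR's quasi-likelihood test with Benjamini-Hochberg adjustment over 13688 genes called 0 of the 7 genes, where the share of all genes called was 0%. None of the 7 reached an unadjusted p of 0.05 either, against 23.5% of all genes, and DESeq2 called 0 of them where it called 7.16% of all genes. Chga averaged 117 ± 92.4 CPM (SD, n = 3) in WT and 208 ± 93.2 CPM (SD, n = 4) in KO, a log2 fold change of 0.82 (SE 0.62, edgeR adjusted p = 0.427). Scg3 had the highest log2 fold change of the 7 at 1.005 (SE 0.61, edgeR adjusted p = 0.328) and Chgb the lowest at 0.18 (SE 0.43, edgeR adjusted p = 0.832). Scg2 (0.90), Cpe (0.88), Pcsk2 (0.83) and Pcsk1 (0.68) lay between. All 7 log2 fold changes were above 0, as were 51.8% of all genes, and the median over the 7 was 0.83 against 0.03 over all genes tested. None of the 7 genes had KO wholly above WT, against 6.74% of all genes. With WT-2404 left out, the median over the 7 was 0.33 and Chgb turned to -0.20 (SE 0.36). When WT-1860 was left out in its place the median was 1.499, and no gene of the 7 passed in either fit. The direction also depended on the model: with the share of digestive enzyme counts as a covariate the median was -0.11, and with library size alone 5 of the 7 were below 0, where the median of all genes was -1.17.

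In Het against WT the differences were larger, and again edgeR called 0 of the 7 genes, with 0% of all genes called, and DESeq2 called 0 where it called 2.21% of all genes. Scg3 had a log2 fold change of 1.45 (SE 0.64, edgeR adjusted p = 0.247), Scg2 of 1.37 (SE 0.62, edgeR adjusted p = 0.249) and Cpe of 1.08 (SE 0.48, edgeR adjusted p = 0.244). These 3 genes reached an unadjusted p of 0.05 on the higher side, as did 8.26% of all genes. Chga (1.24), Pcsk2 (1.20), Pcsk1 (1.16) and Chgb (0.42) did not. Scg2 and Scg3, 2 of the 7 genes, had Het wholly above WT, against 11.3% of all genes. The median over the 7 was 1.20 against 0.0047 over all genes, and all 7 lay above 0 against 50.3% of all genes. Leaving out WT-2404 lowered the median to 0.72, and leaving out WT-1860 raised it to 1.92. Without WT-2404, Scg2 stood at 0.89 with an edgeR adjusted p of 0.616.

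KO against Het gave negative log2 fold changes for all 7 genes, from -0.48 for Pcsk1 to -0.20 for Cpe, with a median of -0.41, where 51.4% of all genes lay above 0. None of the 7 had KO wholly below Het, against 1.16% of all genes. edgeR called 0 of the 7 genes, as it did 0% of all genes, 0 of the 7 reached an unadjusted p of 0.05 against 0.752% of all genes, and DESeq2 called 0 of them and 0% of all genes. Without Het-2042 the median was -0.0665, with Chgb at 0.13 and Cpe at 0.10, and without KO-2070 it was -0.69. Fitted as a slope per floxed allele, the median over the 7 genes was 0.37, and all 7 lay above 0 against 51.9% of all genes. In that fit edgeR called 0 of the 7 against 0% of all genes, 0 at an unadjusted p of 0.05 against 21.2%, and 0 by DESeq2 against 3.29%. Without WT-2404 the median slope was 0.0837, with Chgb at -0.12 and Pcsk1 at -0.0062. It was -0.12 with the enzyme share as a covariate and -0.0209 with library size alone. These comparisons share libraries, KO against WT and Het against WT both using the 3 WT mice, so they are not independent. The 7 genes also rose and fell together across the libraries, so a sign shared by all 7 is not 7 independent results.

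**Figure D2:**
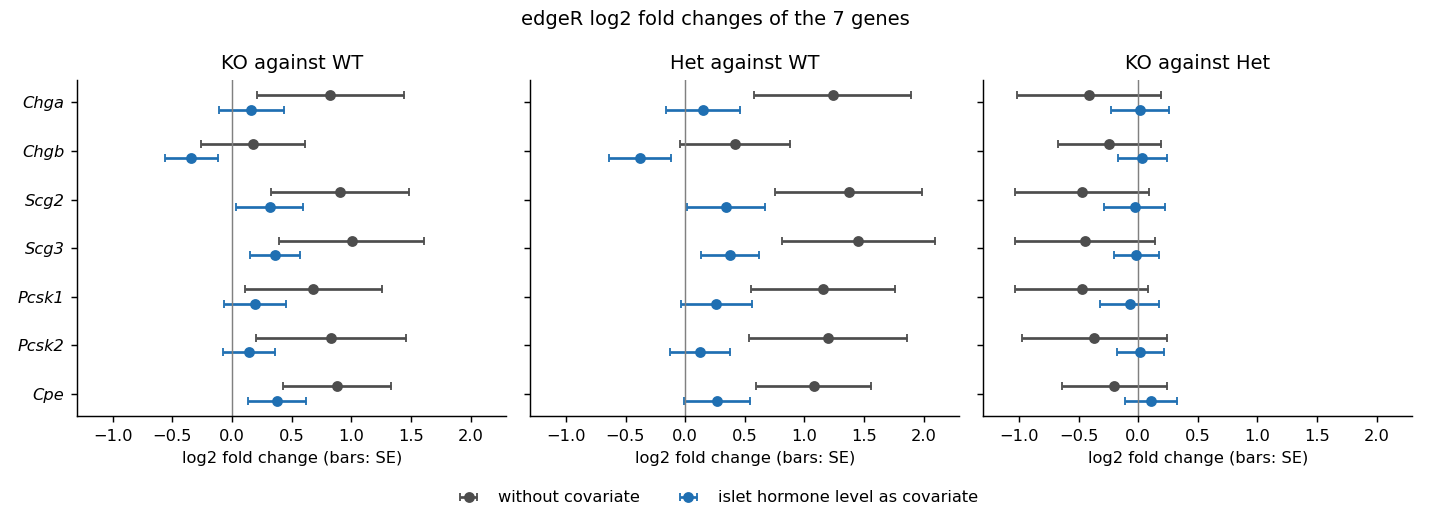
edgeR log2 fold changes of the 7 genes in the 3 comparisons of labels (points; bars are standard errors), without a covariate in grey and with the islet hormone level as a covariate in blue. With the covariate the WT comparisons lie nearer to 0 for 6 of the genes, while Chgb lies at -0.34 (KO against WT) and -0.38 (Het against WT).

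The second comparison set the 7 genes against the peptide hormones of the islet. The hormone list held Ins1 and Ins2 (insulin), Gcg (glucagon), Sst (somatostatin), Ppy (pancreatic polypeptide), Iapp (islet amyloid polypeptide) and Pyy (peptide YY). Summed over the list, hormones ran from 456 CPM in WT-2404 to 9374 CPM in Het-2042, the same lowest and highest libraries as for the 7 genes. Across the 10 libraries, Pearson's r with the mean log2 CPM of the hormones was 0.995 for Pcsk2, 0.988 for Chga, 0.984 for Scg3, 0.974 for Scg2, 0.970 for Pcsk1, 0.969 for Cpe and 0.920 for Chgb. Pcsk2 followed the hormones in the same rank order in every library, with a Spearman's rho of 1. Without WT-2404 and Het-2042, the libraries farthest from the median, r ranged from 0.769 (Chgb) to 0.971 (Pcsk2). The points share libraries and their scaling, and r is given as a description.

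**Figure D3:**
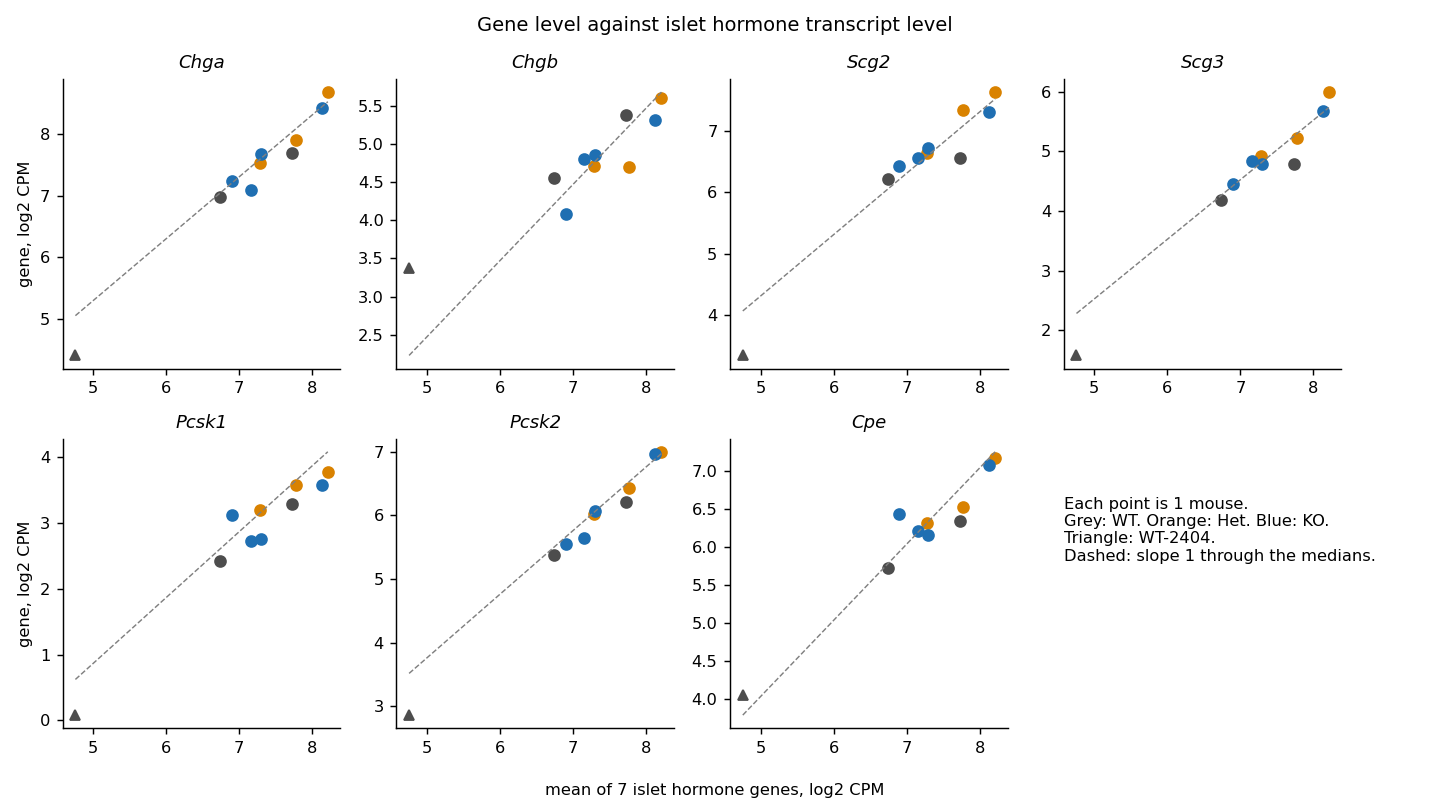
Each gene's log2 CPM against the mean log2 CPM of the 7 islet hormone genes, 1 point per mouse, with a dashed line of slope 1 through the medians (grey WT, orange Het, blue KO; triangle WT-2404). Most points lie near the line, and in WT-2404 Chgb and Cpe lie above it while Chga, Scg2, Scg3, Pcsk1 and Pcsk2 lie below it. The mean weights the 7 hormone genes equally.

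With the hormone mean as a covariate over all 10 libraries, the KO against WT log2 fold changes were 0.16 for Chga, 0.31 for Scg2, 0.36 for Scg3, 0.19 for Pcsk1, 0.14 for Pcsk2 and 0.37 for Cpe. Chgb turned negative, at -0.34 (SE 0.22, edgeR adjusted p = 0.530). In Het against WT, Chgb stood at -0.38 (SE 0.26, edgeR adjusted p = 0.723) and the other 6 genes between 0.12 and 0.38. None of the 7 reached an unadjusted p of 0.05, and the fit called 0 of 13688 genes in any comparison. Without WT-2404, Chgb was at -0.30 (KO against WT) and -0.38 (Het against WT), and 0 genes were called.

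Counts per 1000 hormone counts were then taken as a ratio within each library that does not depend on the scaling. The hormone mean above weights its 7 genes equally, whereas hormone counts are mostly those of Ins2, Ins1 and Gcg. Scg3 ranged from 5.06 to 6.79 per 1000 hormone counts over the 10 libraries, Pcsk2 from 11.8 to 15.7, Chga from 32.1 to 46.7 and Scg2 from 17.4 to 25.4, at most a 1.47-fold span. Pcsk1 ranged from 1.45 to 2.51. Thus the granins other than Chgb, and Pcsk2, spanned less than 1.5-fold here where their CPM after TMM scaling spanned 17.9-fold or more.

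Chgb departed from this pattern. It stood at 22.6, 7.66 and 8.08 per 1000 hormone counts in WT-2404, WT-1860 and WT-2067, at 3.68, 5.52 and 5.17 in Het, and at 6.50, 4.90, 6.57 and 4.94 in KO. All 3 WT libraries lay above all Het and all KO libraries. The exact Poisson interval of WT-2404 (20.8 to 24.4) lay clear of the next highest, WT-2067 (7.29 to 8.93), while that of WT-1860 (7.13 to 8.22) lay just above those of KO-2079 (5.92 to 7.12) and KO-2124 (6.05 to 7.11). These intervals cover counting error alone. On this ratio 11.3% of all genes had KO wholly below WT and 36.6% had Het wholly below WT, so a separation of this kind was common among genes. The span of Chgb was 6.13-fold with WT-2404 and 2.20-fold without it. Relative to Chga, Chgb had 0.483 counts per count in WT-2404 and 0.109 to 0.205 in the other 9 libraries.

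Cpe departed in 2 libraries. It stood at 36.4, 14.8 and 18.2 per 1000 hormone counts in WT, 13.1, 16.9 and 15.4 in Het, and 16.1, 16.8, 17.5 and 25.2 in KO, so WT-2404 and KO-2126 were high and the groups overlapped. Ppy and Pyy, hormones of pancreatic polypeptide cells, were also highest per 1000 hormone counts in WT-2404, at 9.35 and 16.2, against at most 3.26 and 3.39 elsewhere. WT-2404 was also the library with the most fibroblast and macrophage counts and the fewest digestive enzyme counts, and the part of any of these in the Chgb and Cpe ratios was not tested.

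**Figure D4:**
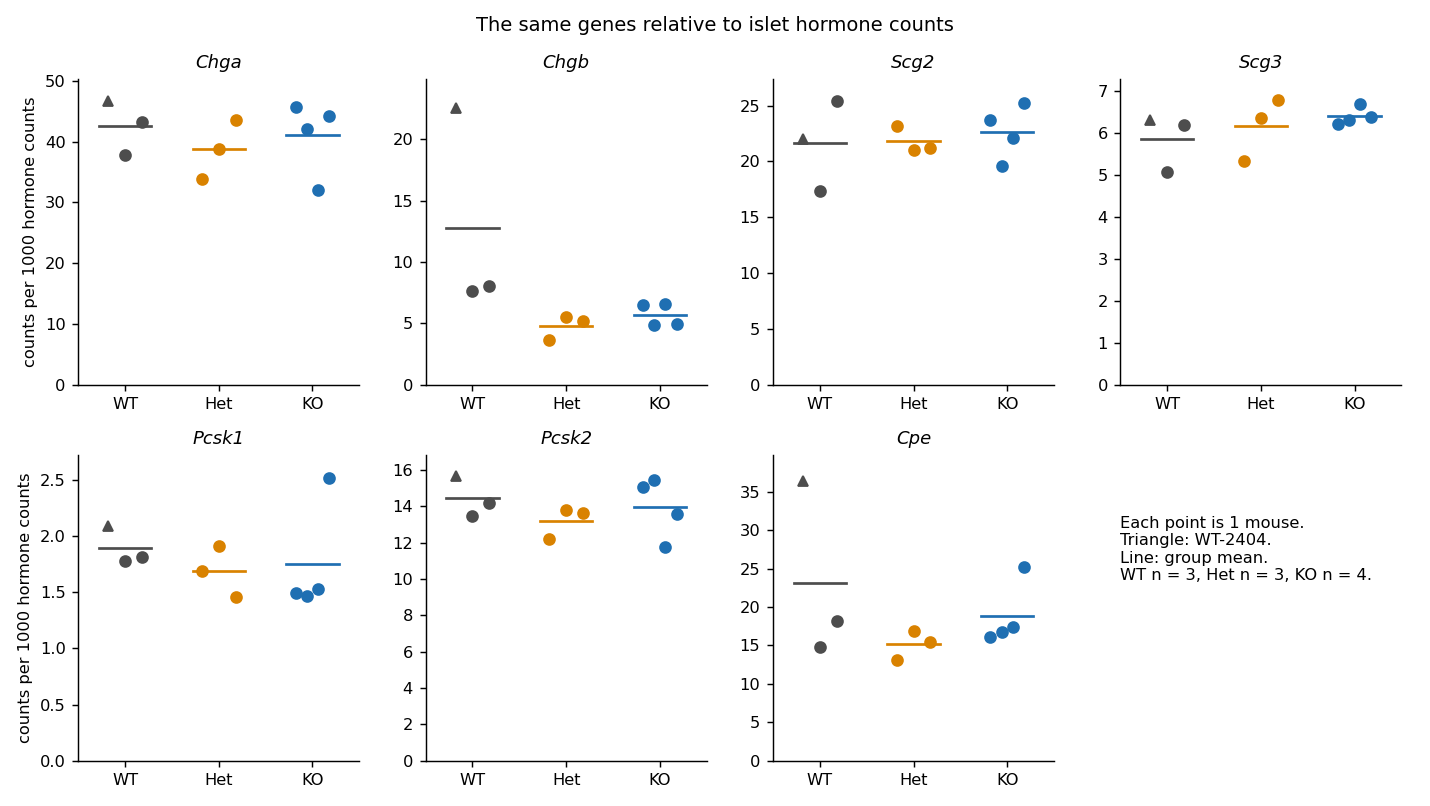
Counts of each gene per 1000 counts of the 7 islet hormone genes in each mouse, on linear axes from 0 (grey WT, orange Het, blue KO; lines are group means; triangle WT-2404). WT-2404 stands far above the rest for Chgb (22.6) and Cpe (36.4), and KO-2126 is the highest KO library for Pcsk1 (2.51) and Cpe (25.2).

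The balance of the convertases was compared as the ratio of Pcsk1 to Pcsk2 counts. WT libraries lay between 0.128 and 0.133, Het at 0.138, 0.139 and 0.107, and KO at 0.0987, 0.0947, 0.130 and 0.185. The KO group thus held both the lowest (KO-2070) and the highest (KO-2126) ratio of the 10. On the log2(CPM + 1) scale the difference KO against WT was -0.34 (exact permutation test, two-sided, p = 0.343, adjusted over 3 comparisons 0.75), where 35 splits allow a smallest p of 0.0286. Het against WT differed by -0.33 (exact permutation test, p = 0.5, adjusted 0.75, smallest possible 0.1) and KO against Het by -0.01 (exact permutation test, p = 0.914, adjusted 0.914). The added pseudocount lifts the low Pcsk1 value of WT-2404. With a pseudocount of 0.1 the differences from WT were -0.13 for KO and -0.087 for Het, and with WT-2404 left out they were -0.10 and -0.0944.

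Among themselves, the 6 genes other than Chgb had pairwise r between 0.970 and 0.997 over the 10 libraries on the log2 CPM scale, and pairs with Chgb between 0.819 and 0.901. Spearman's rho, which weighs the low values of WT-2404 less, ran from 0.782 (Scg2 and Cpe) to 0.988 (Chga and Pcsk2) among the 6. Pairs with Chgb had a rho from 0.564 (Cpe) to 0.830 (Pcsk2). Beyond the set, the genes most like the mean of the 7 (standardised log2 CPM, Pearson's r, 10 libraries) were Scg5 (0.997), Ins1 (0.996), Gcg (0.995), Ins2 (0.994), Syt13 (0.993), Pappa2 (0.992), Prss53 (0.990) and Iapp (0.988). Without the 2 libraries farthest from the median, r of these 8 genes ranged from 0.941 (Iapp) to 0.987 (Scg5). Scg5 encodes 7B2, a protein that binds the PC2 convertase, and Syt13 an atypical synaptotagmin. For Chga the most alike gene of the table was Pcsk2 (0.997), a member of the set, and then Scg5 (0.995). For Chgb these were Eef1a2 (0.971), a translation elongation factor gene of neurons and muscle, and Disp2 (0.947), neither of which was among the 8 genes most like the mean. Eef1a2 lay below the level of 3 counts in WT-2404 (0.0167 against 0.0501 CPM) and KO-2126 (0.202 against 0.303 CPM). Without the 2 libraries farthest from the median of Chgb, r was 0.908 for Eef1a2 and 0.858 for Disp2. Scg2 was closest to Ins2 and Ins1, Scg3 to Scg5 and Ins2, Pcsk1 to Ins1 and Sez6l, Pcsk2 to Scg5 and Chga, and Cpe to Scg3 and Scg5.

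Other genes of the secretory pathway were examined from fixed lists, and edgeR called 0 of their genes in any comparison. DESeq2 called 0 granin relatives, granule genes, hormones and islet transcription factor genes. Of the granin relatives and convertase-binding proteins, Scg5 and Pcsk1n (proSAAS) could be tested and Vgf could not. Scg5 averaged 6.44 CPM in WT and 11.8 CPM in KO (log2 fold change 0.90, SE 0.56, edgeR adjusted p = 0.344). Pcsk1n averaged 14.6 CPM in WT and 22.6 CPM in KO (log2 fold change 0.64, SE 0.56, edgeR adjusted p = 0.503). Tested were 23 genes of the dense core granule and its release machinery. In KO against WT, 18 had a log2 fold change above 0, against 51.8% of all genes, with a list median of 0.59. In Het against WT 20 did so, against 50.3% of all genes, with a list median of 0.76. An unadjusted p of 0.05 on the higher side was reached by 4 of the 23 in KO against WT, where 9.6% of all genes did so. In Het against WT it was reached by 3, where 8.26% of all genes did so. Ptprn2, a granule membrane phosphatase gene, averaged 50.4 CPM in WT, 103 CPM in Het and 88.1 CPM in KO. Hid1, a gene of granule formation, averaged 41.7, 70.9 and 76.1 CPM.

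The 16 other convertases and peptide-processing enzymes, a mixed list that holds Furin and also the granule enzyme gene Pam, summed to 375 to 621 CPM over the 10 libraries, a far narrower range than the 69.1 to 1004 CPM of the 7 genes, and WT-2404 (551 CPM) lay among the higher libraries. In KO against WT, 8 of the 16 had a log2 fold change above 0, against 51.8% of all genes, with a list median of 0.01. Furin, the ubiquitous convertase, differed by 0.15 (SE 0.28) and Ctsl, encoding cathepsin L, by -0.17 (SE 0.29). An unadjusted p of 0.05 was reached on the higher side by 2 and on the lower side by 2 in each comparison with WT. Over all genes the shares were 9.6% higher and 13.9% lower in KO, and 8.26% higher and 11.6% lower in Het. The 4 genes of the list were Cpm and Pcsk6 above and Cpz and Pcsk5 below, named after their values were seen. Cpm, a membrane carboxypeptidase gene, had a KO against WT log2 fold change of 1.24 and Cpz of -2.16, both with an edgeR adjusted p of 0.116. DESeq2 called both in KO against WT, where it called 7.16% of all genes, and Cpz alone in Het against WT, where it called 2.21%.

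The islet hormones themselves had median log2 fold changes of 0.77 (KO against WT) and 1.14 (Het against WT), beside 0.83 and 1.20 for the 7 genes. Ins2 averaged 1510 CPM in WT, 3822 CPM in Het and 2652 CPM in KO. Its WT values were 213, 2815 and 1503 CPM in WT-2404, WT-1860 and WT-2067. Gcg averaged 483 CPM in WT, 1066 CPM in Het and 877 CPM in KO. Ins1 had a KO against WT log2 fold change of 0.68, Iapp of 0.77 and Sst of 0.89, while Ppy (-0.0079) and Pyy (0.05) lay near 0. None of these passed edgeR's test. Of 13 tested islet transcription factor genes, 10 lay above 0 (KO against WT) and 11 (Het against WT). Over all genes the shares above 0 were 51.8% and 50.3%. Nkx2-2 was at 0.57 (SE 0.51).

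Granins are also expressed by gut-type endocrine cells and peripheral neurons, so markers of these were summed. Gut-type endocrine genes summed to 1.19 to 6.89 CPM per library, neuron genes to 4.59 to 13.9 CPM and glial genes to 1.52 to 7.16 CPM, against 69.1 to 1004 CPM for the 7 genes. Only 2 of 10 gut-type endocrine genes, 5 of 12 neuron genes and 3 of 8 glial genes had enough counts to test, and no gene of these lists was at 0 in every library. Ghrl (ghrelin) averaged 4.15 CPM in WT and 1.95 CPM in KO, and Tph1 0.916 and 0.193 CPM. The neuron genes Stmn2 and Uchl1 averaged 2.27 and 1.94 CPM in WT and 1.74 and 2.01 CPM in KO. The glial gene S100b averaged 1.47 CPM in WT and 0.809 CPM in KO. The fibroblast list had a median KO against WT log2 fold change of -1.53 and the macrophage list of -1.67, with 0 genes called by edgeR. DESeq2 called 7 of 12 and 9 of 10 lower, where it called 5.11% of all genes lower. All 17 digestive enzyme genes lay above 0, against 51.8% of all genes, with a list median of 1.20. The duct list had a median of -1.55, with 0 of its genes called by edgeR and 5 of 12 called lower by DESeq2. In these lists Col1a1 averaged 605 CPM in WT and 102 CPM in KO, Col3a1 1016 and 233 CPM, Lyz2 399 and 127 CPM, and Cd74 536 and 214 CPM. Spp1 averaged 440 CPM in WT and 151 CPM in KO, and Tff2, also of the duct list, 792 and 1626 CPM. Of the enzyme genes, Ctrb1 stood at 0.86 (SE 0.89) and Pnlip at 1.55 (SE 1.05) on the log2 scale in KO against WT. The fibroblast, macrophage and enzyme levels, like the 7 genes, departed most in WT-2404, and the part of these cell types in the differences between labels was not tested.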

How the data were processed

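RNA sequencing of 10 pancreas tail pieces was analysed, 1 mouse each. The authors deposited 1 table of raw counts per gene symbol. The submitters' processing notes name mm10, DRAGEN, STAR and Cufflinks, without roles; the counting tool, annotation and use of strand are not given in the sources used here. Per the labels' protocols, frozen tissue was pulverised and RNA extracted with a column kit. Not reported here are 2 genes that the naming rule selects and a further part of the genotype, which all groups share.

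All columns were matched by label and mouse number. The 2 rows naming no gene (2.59% to 8.71% of counts outside genes, 0.101% to 0.584% ambiguous) were left out. Genes passing filterByExpr (minimum count 10; 13688 of 24421) were tested in 1 fit over the 10 libraries with edgeR 4.0.16 in R 4.3.3 (TMM factors, quasi-likelihood test, robust, two-sided), adjusted by Benjamini and Hochberg's method, threshold 0.05. Correlations used log2 CPM with a prior count of 2. Pcsk1 to Pcsk2 ratios were compared by exact permutation with a pseudocount of 1. Exact Poisson intervals are at a level of 0.95. The 3 counts that a count of 0 allows correspond to 0.0501 to 0.395 CPM. Replicates differed by more than sampling noise (chi-square per degree of freedom 26.5 to 988). Nothing in the labels beyond the mouse number describes litters or batches. The p-values set group differences against the spread between these mice, and unlabelled differences between the groups cannot be told apart from genotype.

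Alternatives were library size alone, RLE factors, no count filter, DESeq2 1.42.0, covariates for islet hormone level and digestive enzyme share, other pseudocounts, and leaving out each library. The hormone covariate over 9 libraries without WT-2404, and the Het ratio with a pseudocount of 0.1 or without WT-2404, were added after seeing the data. The test was checked on simulated data for KO against WT. It recovered 12 of 100 genes changed 2-fold and 76 of 100 changed 4-fold, with 5 false calls. A 2-fold change was thus seldom called. The simulation drew each gene independently and held no library set apart like WT-2404, so the shares recovered may not hold for the real libraries. There Col1a1, with a KO against WT log2 fold change of -2.57, had an edgeR adjusted p of 0.116. The 0 calls therefore do not exclude differences of 2-fold or more. The genes and the 13 lists were chosen with earlier results of these data known. Named genes were the 7 members, all islet hormones, the 2 tested genes of highest mean CPM in each other list, any gene past the threshold, the 8 genes most correlated with the members' mean, and the 2 most correlated with each member.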

Additional observations from a re-analysis of the deposited data

Results flagged for a closer look

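Among the 4 KO libraries, 23 measures were examined by Dixon's test at the 0.95 level for 1 library that stands apart. Chance gives about 1 in 20 such results, 1.15 of 23, and 3 were found, all in KO-2126 and not independent of each other. Pcsk1 stood at 2.51 counts per 1000 hormone counts in KO-2126 (exact Poisson interval 2.01 to 3.11, from 85 counts) against 1.47 to 1.53 in the other KO libraries, whose intervals reached up to 1.80. Cpe stood at 25.2 per 1000 hormone counts in KO-2126 (23.5 to 27.0) against 16.1 to 17.5. The log2 ratio of Pcsk1 to Ins2 was -7.53 in KO-2126 against -8.34 to -8.28.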

How the results depend on the processing

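In 476 alternative fits of single genes of the set, 0 passed the threshold (lowest edgeR or DESeq2 adjusted p 0.136) and 41 changed sign. No paired analysis was possible because the mouse numbers are not shared between groups. The number of genes called among all genes, 0 in every comparison, depended on the method. DESeq2 called 996 genes in KO against WT, 316 in Het against WT and 445 in the slope. Library size alone gave 2835 genes (KO against WT) and 3125 (Het against WT), all lower, with all genes shifted by -1.17 and -1.36 in the median. Leaving out a library gave 0 to 1933 genes (KO against WT) and 0 to 1158 (Het against WT), the highest in both without WT-2067, and 0 to 11 in the slope, the highest without KO-2079.

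With library size alone, KO against WT turned to -0.0082 for Chga, -0.72 for Chgb, -0.17 for Pcsk1, -0.0032 for Pcsk2 and -0.0296 for Cpe, Het against WT to -0.62 for Chgb, and the slope to -0.0239 for Chga, -0.35 for Chgb, -0.10 for Pcsk1, -0.0182 for Pcsk2 and -0.0209 for Cpe. In the comparisons with WT these values lay above the shift of all genes. With the hormone covariate the Het against WT median over the 7 genes was 0.26, Chgb was at -0.34 (KO against WT), -0.38 (Het against WT) and -0.14 (slope), and KO against Het turned to 0.0135 for Chga, 0.0342 for Chgb, 0.0189 for Pcsk2 and 0.11 for Cpe. Over 9 libraries without WT-2404 that covariate gave Chgb -0.30, -0.38, 0.0805 (KO against Het) and -0.12 (slope), and Cpe 0.0583 (KO against Het). With digestive enzyme share as covariate the KO against WT median was -0.11, with Chga -0.11, Chgb -0.31, Pcsk1 -0.24 and Pcsk2 -0.11, Het against WT gave Chgb -0.0898, and the slope Chga -0.13, Chgb -0.16, Scg2 -0.0634, Scg3 -0.0189, Pcsk1 -0.19 and Pcsk2 -0.12. Leaving out each library, Chgb ranged from -0.20 to 0.75 in KO against WT, from -0.12 to 0.29 in the slope and from -0.44 to 0.13 in KO against Het, Pcsk1 from -0.0062 to 0.52 in the slope, and Cpe from -0.45 to 0.10 in KO against Het. The cause of these changes was not tested. Depth limits Pcsk1 most, with 57 counts in WT-2404.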

Other observations

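The hormone make-up behind the ratios varied by gene. Per 1000 hormone counts, the highest library exceeded the lowest 1.14-fold for Ins1, 1.20-fold for Ins2 and 1.44-fold for Gcg. For Ppy and Pyy it did so 6.58-fold and 9.08-fold, with WT-2404 the highest for both. Ins2 made up 468 to 559 and Ins1 216 to 246 of every 1000 hormone counts over the 10 libraries, and Gcg 133 to 192. Somatostatin transcripts (Sst) ranged from 7.24 to 10.7 per 1000, and Iapp from 57.7 to 74.1. The ratio of Gcg to Ins2 counts ran from 0.239 (Het-2066) to 0.382 (WT-2404), with Het-2042 at 0.331 and the KO libraries between 0.261 and 0.373. Pcsk2 to Gcg ran from 0.0784 to 0.103 counts per count.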
